A study of Mus musculus with 6 samples.

Results

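Vascular endothelial growth factors (VEGFs) and their receptors were compared across 3 subsets of thymic endothelial cells (ECs). The family was taken as 7 genes, the receptors Kdr, Flt1 and Flt4 and the ligands Vegfa, Vegfb, Vegfc and Pgf, which were picked by gene symbol from the 24457 genes on chromosomes in the deposited tables. All 7 were present, and all 7 were among the 11717 genes that reached 1 FPKM (fragments scaled to transcript length and to library size) in at least 2 libraries. The ECs came from the thymus of female wildtype C57BL/6 mice aged 4 to 6 weeks, with no other allele and no agent named in the labels. They were sorted as CD31+CD45-EpCAM- cells and split by surface Ly6C and P-selectin (Selp) into Ly6C+Selp- (type I), Ly6C+Selp+ (type II) and Ly6C-Selp+ (type III) cells, each to a stated purity of at least 90%, and 2 libraries were made from each subset, 6 in all. The labels do not say whether the 2 libraries of a subset came from separate mice, so the p-values below measure only the spread between these libraries. An exact permutation test of 2 libraries against 2 cannot go below p = 0.33, so the tests rest on a limma fit across all tested genes. In sorted populations, fewer cells of a type and less RNA per cell cannot be told apart.

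VEGF-A binds VEGFR1, encoded by Flt1, and VEGFR2, encoded by Kdr. VEGFR2 carries most of the growth, survival and permeability signal in blood vessel ECs, whereas VEGFR1 binds VEGF-A more tightly, signals weakly and is also made as a soluble form that withholds the ligand. Of the VEGF receptors, VEGF-B and placental growth factor (Pgf) bind only VEGFR1, and VEGF-C acts mainly through VEGFR3, encoded by Flt4, which is high in lymphatic ECs and in sprouting blood vessels.

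The sequences just upstream of Kdr and Flt1 are shown because these 2 receptors had the highest levels and their levels moved together across the 6 libraries. Both are RefSeq promoter sequences on GRCm38.p6, and both lie on the minus strand of chromosome 5. The 300-base window that holds each one matches chromosome 5 of mm9, the build of the deposited tables, exactly once. The Kdr sequence spans 247 bases, chr5:75978459-75978705 on GRCm38.p6 and chr5:76374484-76374730 on mm9. The Flt1 sequence spans 250 bases, chr5:147726012-147726261 on GRCm38.p6 and chr5:148537588-148537837 on mm9. Each is written 5′ to 3′ and ends where the first annotated base of the gene begins. The capitals mark GC boxes, the letters GGGCGG or, on the other strand, CCGCCC.
Kdr: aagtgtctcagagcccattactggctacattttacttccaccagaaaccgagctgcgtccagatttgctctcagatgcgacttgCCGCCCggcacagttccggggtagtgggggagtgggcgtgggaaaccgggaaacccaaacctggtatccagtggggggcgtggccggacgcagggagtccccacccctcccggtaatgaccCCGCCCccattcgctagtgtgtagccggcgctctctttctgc
Flt1: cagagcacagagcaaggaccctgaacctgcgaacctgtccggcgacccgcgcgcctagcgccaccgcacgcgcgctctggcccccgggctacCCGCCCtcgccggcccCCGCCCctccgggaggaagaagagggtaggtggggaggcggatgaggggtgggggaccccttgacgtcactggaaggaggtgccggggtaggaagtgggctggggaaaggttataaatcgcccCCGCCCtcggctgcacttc
There were 2 GC boxes upstream of Kdr and 3 upstream of Flt1, all on the other strand. A GC box on either strand was found in 35.7% of the 32851 mouse promoter windows of 300 bases in RefSeq. The letters TATAAA occurred once, close to the start of Flt1, and not in the Kdr window (13.6% of all windows). The letters CGGAA, which include the GGAA core of ETS factors, occurred once in the Kdr window and not in that of Flt1 (29.9% of all windows). The letters ACGTG, the core of a hypoxia response element, were in neither window (19.6% of all windows). The 300-base windows held 19 CpG dinucleotides for Kdr and 29 for Flt1, beside a median of 7 over all windows. These matches describe the letters only.

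In the mm9 gene annotation (GENCODE M1), the 3 receptor genes are long. Kdr lies at chr5:76328852-76374483 and Flt1 at chr5:148373180-148537587, both on the minus strand, and Flt4 lies at chr11:49422765-49466241 on the plus strand. The longest coding transcript of each has 30 exons. Among the ligands, Vegfa lies at chr17:46153942-46169326 and Vegfb at chr19:7056963-7062141 on the minus strand, Vegfc at chr8:55162886-55271808 on the plus strand and Pgf at chr12:86507589-86518246 on the minus strand. Their longest coding transcripts have 8 exons (Vegfa) or 7 (the other ligands). The deposited tables hold 1 value per gene, so the membrane and soluble forms of Flt1 and the splice forms of Vegfa were not separated.

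The sort was visible in the RNA. Selp was at 5.20 to 7.87 FPKM in the Ly6C+Selp- libraries and at 313 to 657 FPKM in the other 4, and Ly6c1 was at 351 to 1010 FPKM in the Ly6C+ libraries and at 59.7 to 99.6 FPKM in the Ly6C-Selp+ libraries. All 10 of the blood EC markers examined, Pecam1 and Cdh5 among them, reached 1 FPKM in every library, with summed levels of 2433 to 3171 FPKM. The bounds deposited with the FPKM values correspond to about 1452480 to 2423170 fragments per library, as if they held counting error alone. On the same basis each receptor rested on about 96 to 3707 fragments per library, and each ligand on about 3 to 82, so the ligand values are the less precise.

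In every subset the receptors outweighed the ligands, with Kdr and Flt1 ahead of all other members. The sum of the 3 receptors was 376 ± 43.9 FPKM (SD, n = 2) in Ly6C+Selp- ECs, 214 ± 25.6 in Ly6C+Selp+ ECs and 161 ± 11.6 in Ly6C-Selp+ ECs. The sum of the 4 ligands was 25.0 ± 4.60, 26.3 ± 1.01 and 26.9 ± 6.02 FPKM in the same order, and its libraries overlapped between the subsets. The receptor to ligand ratio was therefore 14.4 and 15.9 in the Ly6C+Selp- libraries, 8.58 and 7.65 in the Ly6C+Selp+ libraries and 6.74 and 5.42 in the Ly6C-Selp+ libraries. No library of one subset reached those of another in this ratio.

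**Figure D1:**
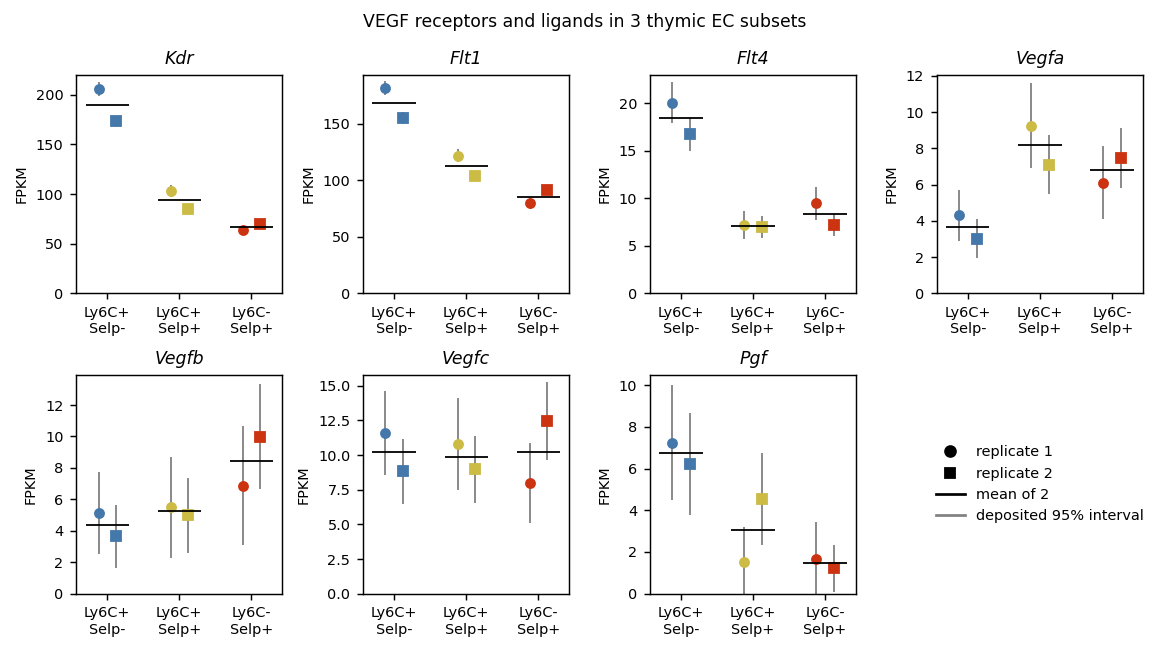
FPKM of the 7 genes in each library (y axis, linear and starting at 0, with its own scale for each gene) by subset (x axis); circles are replicate 1, squares are replicate 2, black bars are means of 2 and grey lines are the deposited 95% intervals. Kdr and Flt1 step down from Ly6C+Selp- through Ly6C+Selp+ to Ly6C-Selp+ ECs, Flt4 is low in both Selp+ subsets, Vegfa is higher in both Selp+ subsets, and the Vegfc libraries overlap between all subsets.

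Kdr, the main signalling receptor for VEGF-A, was at 206 and 173 FPKM in the Ly6C+Selp- libraries, 103 and 84.7 in the Ly6C+Selp+ libraries and 63.4 and 70.2 in the Ly6C-Selp+ libraries. The 3 pairs of libraries did not overlap, and their order was Ly6C+Selp-, Ly6C+Selp+, Ly6C-Selp+ from high to low. The mean in Ly6C+Selp- ECs was 2.83-fold that in Ly6C-Selp+ ECs and 2.02-fold that in Ly6C+Selp+ ECs. In type III against type I ECs Kdr fell, with a log2 fold change of -1.49 (SE 0.234, adjusted p = 0.00794, limma with Benjamini-Hochberg adjustment over 11717 genes). Of the genes tested, 4.24% had a larger absolute change, and the median of all genes was 0.0819. The change within replicate number 1 was -1.68 and within number 2 it was -1.29. Without either one of the Ly6C-Selp+ libraries Kdr no longer passed (adjusted p = 0.0823 without replicate 1 and 0.0578 without replicate 2, limma).

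Kdr in Ly6C+Selp+ ECs stood between the other subsets. On the log2 scale it was 0.678 of the way down from the type I mean to that of type III. The log2 fold change from type I to type II ECs was -1.01 (SE 0.234), which did not pass in limma (adjusted p = 0.156) but did once the replicate number was a block (adjusted p = 0.0380). The labels do not say that libraries with the same number belong together. The 2 Selp+ subsets, neighbours in the order, differed by -0.48 (95% interval -1.01 to 0.05, adjusted p = 0.551), and this step did not pass with or without the block.

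Flt1, the receptor of VEGF-A, VEGF-B and Pgf, followed the same order with smaller steps. It was at 182 and 156 FPKM in the Ly6C+Selp- libraries, 122 and 104 in the Ly6C+Selp+ libraries and 79.6 and 91.6 in the Ly6C-Selp+ libraries, again without overlap. The Ly6C+Selp- mean was 1.97-fold the Ly6C-Selp+ mean. The log2 fold change from type I to type III ECs was -0.97 (SE 0.231), just outside the threshold in limma (adjusted p = 0.0541) and inside it with the replicate block (adjusted p = 0.0130). TPM, median-of-ratios and quantile scaling and a filter at 5 FPKM also brought it inside. The steps to and from Ly6C+Selp+ ECs were -0.57 (95% interval -1.09 to -0.05, adjusted p = 0.596) and -0.40 (95% interval -0.92 to 0.12, adjusted p = 0.635), and neither passed with or without the block.

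The order of Kdr and Flt1 by FPKM differed between the subsets. Flt1 stood at 0.885 and 0.898 times Kdr in the Ly6C+Selp- libraries, at 1.18 and 1.23 times in the Ly6C+Selp+ libraries and at 1.26 and 1.31 times in the Ly6C-Selp+ libraries. By FPKM, Kdr was thus the highest receptor in both Ly6C+Selp- libraries and Flt1 in the other 4. FPKM are scaled to transcript length, and the Flt1 value pools its membrane and soluble forms. Which receptor was the more abundant was not tested. Kdr made up 50.3% ± 0.217 (SD, n = 2) of the receptor sum in Ly6C+Selp- ECs, 43.8% ± 0.813 in Ly6C+Selp+ ECs and 41.6% ± 0.0341 in Ly6C-Selp+ ECs. Across the 6 libraries log2 levels of Kdr and Flt1 had a Pearson correlation of 0.991, a description over libraries that share the 3 subsets and their scaling.

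Flt4, the receptor of VEGF-C, had another order. It was at 20.0 and 16.7 FPKM in the Ly6C+Selp- libraries, 7.21 and 7.003 in the Ly6C+Selp+ libraries and 9.45 and 7.15 in the Ly6C-Selp+ libraries. Both Selp+ subsets lay below both Ly6C+Selp- libraries, and the Selp+ subsets overlapped each other. The log2 fold change from Ly6C+Selp- ECs was -1.25 (SE 0.281) in Ly6C+Selp+ ECs and -1.06 (SE 0.281) in Ly6C-Selp+ ECs, and neither passed in limma (adjusted p = 0.142 and 0.0799). With the replicate block both passed (adjusted p = 0.0342 and 0.0192). Between the 2 Selp+ subsets the difference was 0.19 (95% interval -0.45 to 0.82, adjusted p = 0.881), and its sign turned (-0.0061) when FPKM were rescaled to TPM.

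Markers of lymphatic ECs, cells rich in Flt4, were highest in the Ly6C-Selp+ subset. The summed level of the 6 lymphatic markers was 1.92 to 3.94 FPKM in Ly6C+Selp- libraries, 2.91 to 5.17 in Ly6C+Selp+ libraries and 6.95 to 33.8 in Ly6C-Selp+ libraries, where 3 of 6 reached 1 FPKM in both libraries. Replicate 1 of that subset held Lyve1 at 12.4 FPKM and Mmrn1 at 11.8 FPKM, replicate 2 held them at 1.07 and 0.583 FPKM, and Ccl21a was listed at 0 in all 6 libraries. Prox1, which sets lymphatic identity, was at 3.05 and 3.22 FPKM in Ly6C-Selp+ libraries and at 0.324 to 1.09 FPKM in the other 4. None of the 3 lymphatic markers tested passed in limma in type III against type I ECs, although 2 had an unadjusted p under 0.05, beside 14.1% of all genes. Prox1 passed with the replicate block (log2 fold change 1.54, limma adjusted p = 0.0288, against 0.0577 without it), beside 8.29% of all genes. The study judged lymphatic ECs and fibroblasts unlikely among the CD31+CD45-EpCAM- cells, which were negative for podoplanin by flow cytometry. The part of lymphatic ECs in the Flt4 level was not tested. Without that first library the Flt4 change from Ly6C+Selp- ECs was -1.24 (adjusted p = 0.188, limma), and without the second it was -0.89 (adjusted p = 0.288).

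**Figure D2:**
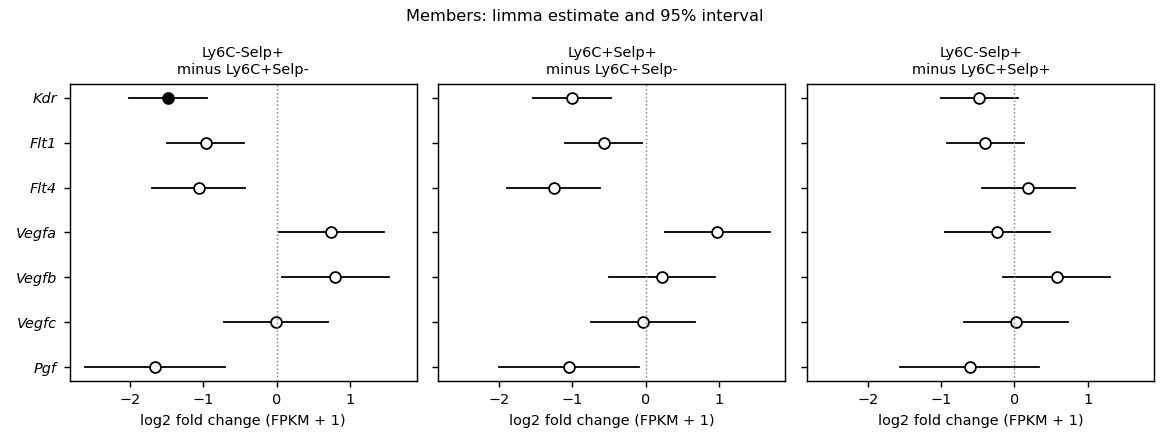
Log2 fold change of FPKM + 1 (x axis) of the 7 genes (y axis) in the 3 comparisons between subsets, from limma over all 6 libraries; lines are 95% intervals that are not adjusted for the number of genes, and a filled circle marks an adjusted p of at most 0.05. Kdr at -1.49 in Ly6C-Selp+ minus Ly6C+Selp- ECs is the only filled circle.

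Vegfa, the ligand of Kdr and Flt1, lay the other way round from its receptors. It was at 4.30 and 3.02 FPKM in the Ly6C+Selp- libraries, 9.25 and 7.11 in the Ly6C+Selp+ libraries and 6.10 and 7.46 in the Ly6C-Selp+ libraries. All 4 Selp+ libraries lay above both Ly6C+Selp- libraries, and the Selp+ subsets overlapped. The means were 2.23-fold (Ly6C+Selp+) and 1.85-fold (Ly6C-Selp+) that of Ly6C+Selp- ECs. The log2 fold changes of 0.98 (SE 0.316, adjusted p = 0.385) and 0.75 (SE 0.316, adjusted p = 0.325) did not pass in limma, nor with the block (adjusted p = 0.146 and 0.145). The libraries rested on about 31 to 82 Vegfa fragments each.

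Vegfb, a ligand of Flt1 alone, was at 5.11 and 3.65 FPKM in Ly6C+Selp- libraries, 5.49 and 4.99 in Ly6C+Selp+ libraries and 6.88 and 9.997 in Ly6C-Selp+ libraries. Only the Ly6C-Selp+ libraries stood apart from the rest, above all other 4, and the 2 Ly6C+ subsets overlapped. Its log2 fold change from type I to type III ECs was 0.80 (SE 0.322) and did not pass in limma (adjusted p = 0.292, and 0.141 with the block). The change from type II to type III ECs, 0.58 (95% interval -0.15 to 1.31, adjusted p = 0.620), did not pass either. The libraries rested on about 12 to 36 Vegfb fragments each. The deposited interval of Ly6C-Selp+ replicate 1, 3.10 to 10.7 FPKM, held the values of both Ly6C+Selp+ libraries.

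Vegfc, the ligand of Flt4, showed no order between the subsets. It was at 11.6 and 8.82 FPKM in the Ly6C+Selp- libraries, 10.8 and 8.98 in the Ly6C+Selp+ libraries and 7.98 and 12.5 in the Ly6C-Selp+ libraries, so that the subset holding the lowest library also held the highest. The 3 log2 fold changes lay between -0.03 and 0.02, each with a 95% interval reaching about 0.68 or more to either side of 0, and their signs turned with the scaling or the library left out. A difference smaller than these intervals was not detectable at this depth.

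Pgf, the other ligand of Flt1 alone, had the largest fold between subset means among the 7 genes. It was at 7.24 and 6.23 FPKM in the Ly6C+Selp- libraries, 1.51 and 4.55 in the Ly6C+Selp+ libraries and 1.68 and 1.22 in the Ly6C-Selp+ libraries. Every Selp+ library lay below both Ly6C+Selp- libraries, and the 2 libraries of Ly6C+Selp+ ECs lay far from each other. The Ly6C+Selp- mean was 4.65-fold the Ly6C-Selp+ mean. The log2 fold change was -1.66 (SE 0.421), which did not pass in limma (adjusted p = 0.0679) but did with the replicate block (adjusted p = 0.0360). The Ly6C-Selp+ values and the lower Ly6C+Selp+ value rested on about 3 to 5 fragments each, and in 2 of these libraries the deposited interval reached 0. The step to Ly6C+Selp+ ECs was -1.05 (SE 0.421, adjusted p = 0.592), with -1.71 within replicate number 1 and -0.38 within number 2.

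The shares of the 4 ligands in their sum are given as a description, since no ligand passed in limma in any comparison and the shares were not tested. Pgf made up 25.6% and 28.7% of the ligand sum in the Ly6C+Selp- libraries, 5.59% and 17.8% in the Ly6C+Selp+ libraries and 7.43% and 3.91% in the Ly6C-Selp+ libraries. Vegfa made up 15.2% and 13.9% in Ly6C+Selp- libraries, 34.2% and 27.7% in Ly6C+Selp+ libraries and 26.9% and 24.0% in Ly6C-Selp+ libraries. Vegfb took 30.4% and 32.1% in Ly6C-Selp+ libraries, against 16.8% to 20.3% in the other 4. Vegfc stayed the largest share in every library, between 35.03% and 41.0%.

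**Figure D3:**
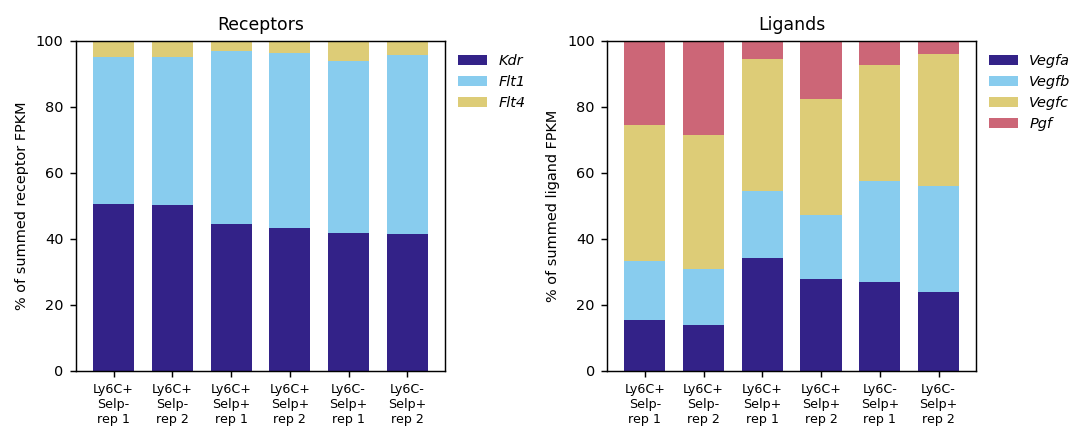
Share of each gene in the summed FPKM (y axis, percent) of the 3 receptors (left) and the 4 ligands (right) in each library (x axis); each bar adds to 100%. Kdr takes 50.1% and 50.4% of the receptor sum in the Ly6C+Selp- libraries and 41.5% to 44.3% in the others, and Pgf takes 25.6% and 28.7% of the ligand sum in the Ly6C+Selp- libraries and 3.91% to 17.8% in the others.

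Counted over the 7 genes, 1 (Kdr) passed in type III against type I ECs, where 4.14% of all genes tested passed in limma. With the replicate block 4 passed there (Kdr, Flt1, Flt4 and Pgf, all lower in Ly6C-Selp+ ECs) beside 8.29% of all genes. From type I to type II ECs none of the 7 passed beside 0.393% of all genes, although 5 of the 7 (all but Vegfb and Vegfc) had an unadjusted p under 0.05, beside 7.48% of all genes. Kdr and Flt4 passed there with the block beside 1.56% of all genes. From type II to type III ECs none of the 7 passed beside 0.222% of all genes, none had an unadjusted p under 0.05 beside 9.99%, and none passed with the block beside 1.95%.

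The libraries of 2 subsets failed to overlap for 6 of the 7 genes (all but Vegfc) between type III and type I ECs, where this held for 37.9% of all genes tested. It held for 5 of the 7 (all but Vegfb and Vegfc) between type II and type I ECs, beside 33.6% of all genes, and for 3 of the 7 (Kdr, Flt1 and Vegfb) between the 2 Selp+ subsets, beside 41%. The first 2 comparisons share the Ly6C+Selp- libraries.

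Among the coreceptors, Nrp1, which presents VEGF-A to Kdr, had the order of Kdr and Flt1. It was at 180 and 113 FPKM in the Ly6C+Selp- libraries, 103 and 71.8 in the Ly6C+Selp+ libraries and 55.8 and 44.1 in the Ly6C-Selp+ libraries. It fell by 1.51 on the log2 scale from type I to type III ECs (adjusted p = 0.0255, limma), a call that was lost without any one of 3 libraries (adjusted p = 0.103 without Ly6C+Selp- replicate 1, 0.0910 without Ly6C-Selp+ replicate 1 and 0.158 without Ly6C-Selp+ replicate 2). Nrp2, the coreceptor of Flt4 and VEGF-C, was at 50.04 to 57.5 FPKM in Ly6C+Selp- libraries and 62.8 to 80.6 FPKM in the other 4, a change of 0.36 that did not pass (adjusted p = 0.609). Figf, which encodes VEGF-D, was listed at 0 in 3 libraries and at no more than 0.267 FPKM in the others, each resting on about 1 fragment, and was not tested.

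Of 27 tested signalling genes downstream of the receptors, 1 rose and none fell from type I to type III ECs, a share close to the 4.14% of all genes that passed, with a list median of 0.0315 beside 0.0819 over all genes. The gene that rose was Shb, an adaptor that binds activated VEGFR2, at 26.7 and 20.4 FPKM in Ly6C+Selp- libraries and 49.8 and 60.3 FPKM in Ly6C-Selp+ libraries (log2 fold change 1.20, adjusted p = 0.0345, limma). That call was lost without any one of 5 libraries, with adjusted p from 0.0675 to 0.201. Plcg1, the phospholipase that VEGFR2 activates, had a change of -0.38 (adjusted p = 0.604) and Nos3, the endothelial nitric oxide synthase, one of -0.06 (adjusted p = 0.964). None of the 27 passed in limma in the other 2 comparisons, with or without the block. An unadjusted p under 0.05 was found for 2 in type II against type I ECs, beside 7.48% of all genes. It was found for 0 in type III against type II ECs, beside 9.99%.

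Of 14 genes for receptor partners and phosphatases, 2 fell and none rose from type I to type III ECs, where 4.14% of all genes passed. The list median was 0.108. Efnb2, the ephrin that takes part in the uptake of VEGFR2 and VEGFR3 and marks arterial ECs, was at 44.9 and 39.1 FPKM in Ly6C+Selp- libraries, 26.0 and 15.4 in Ly6C+Selp+ libraries and 7.77 and 9.86 in Ly6C-Selp+ libraries. It fell by 2.14 on the log2 scale (adjusted p = 0.00531, limma) and still passed without any single library. Cd93, a transmembrane glycoprotein of ECs, fell by 1.11 (adjusted p = 0.0376), and did not pass without any one of the 6 libraries (adjusted p from 0.0566 to 0.203). With the replicate block 2 of the 14 rose, Clec14a (0.98) and Mmrn2 (0.84), 2 proteins of the EC surface and matrix that bind each other (adjusted p = 0.00940 and 0.0266, against 0.0572 and 0.104 without it), and 2 fell. With the block, 8.29% of all genes passed. Ptprb, the phosphatase VE-PTP that restrains VEGFR2, was at 154 to 206 FPKM in all libraries and had a change of 0.27 (adjusted p = 0.697, limma without the block).

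**Figure D4:**
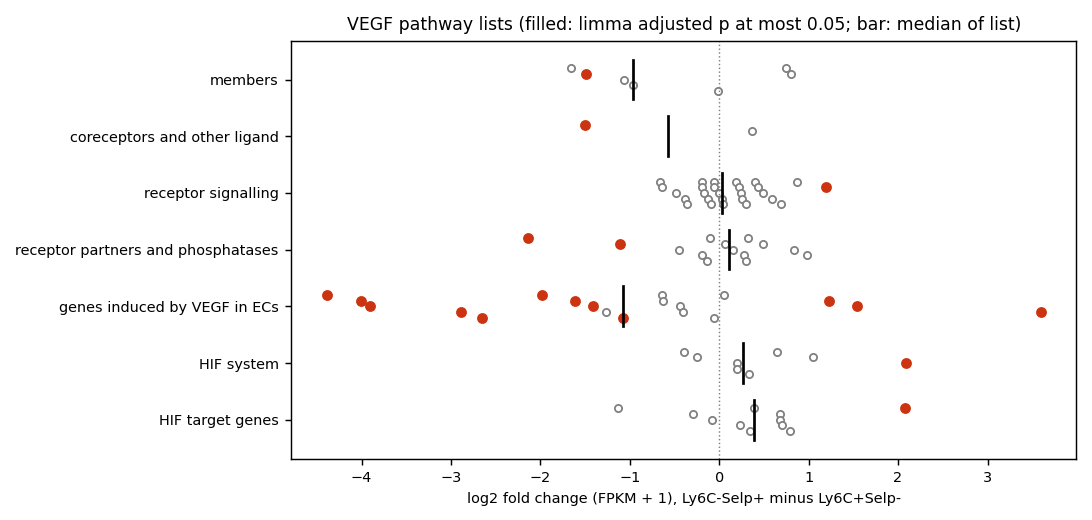
Log2 fold change of FPKM + 1 between type III and type I ECs (x axis) for each tested gene of the VEGF family and of 6 pathway lists (y axis, points spread vertically for legibility); filled circles have a limma adjusted p of at most 0.05 and black bars are list medians. The 19 genes induced by VEGF spread from -4.39 to 3.60, with 9 filled circles below 0 and 3 above, and the 27 signalling genes stay between -0.66 and 1.20. The lists were chosen with earlier results of these data known.

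Among the pathway lists, genes that VEGF is known to induce in ECs spread furthest. The lists were chosen with earlier results of these data known, so their counts and medians are descriptions only. Of the 19 VEGF-induced genes tested, 9 fell and 3 rose from type I to type III ECs, where 4.14% of all genes tested passed. The list median was -1.08 beside 0.0819 over all genes. Without Ly6C-Selp+ replicate 1, 7 fell and 1 rose, and without Ly6C-Selp+ replicate 2, 6 fell and 1 rose. Rgcc, a cell cycle regulator, stood at 337 and 223.5 FPKM in Ly6C+Selp- libraries and at 14.6 and 10.2 FPKM in Ly6C-Selp+ libraries (log2 fold change -4.39, adjusted p = 0.000273, limma). Esm1, a secreted proteoglycan of sprouting tip cells, stood at 40.6 and 31.3 FPKM against 3.05 and 0.272 FPKM (-4.01, adjusted p = 0.00551), with a change of -4.85 without Ly6C-Selp+ replicate 1 and -3.18 without replicate 2, and of -5.04 with a pseudocount of 0.1 and -4.89 with TPM, all of which passed. Igfbp3, which binds insulin-like growth factors, stood at 326 and 256 FPKM against 18.1 and 18.6 FPKM (-3.91, adjusted p = 0.000161).

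Each gene of this list named as fallen by size of change had a mean Ly6C+Selp+ level between those of the other 2 subsets. Unc5b, a netrin receptor of tip cells, fell by 2.89, Apln, the ligand apelin, by 2.65, its receptor Aplnr by 1.98, and Pdgfb, which recruits pericytes, by 1.61 on the log2 scale (adjusted p from 0.00143 to 0.00511, limma). Dll4, a Notch ligand, fell by 1.41 and Nr4a1, an orphan nuclear receptor, fell by 1.08, and both are named after their values were seen. Single libraries decided some of these calls: Unc5b was lost without Ly6C+Selp- replicate 2 (adjusted p = 0.0510), Pdgfb without Ly6C-Selp+ replicate 2 (0.0559), Dll4 without Ly6C+Selp- replicate 2 or either Ly6C-Selp+ library (0.0536 to 0.0863), and Nr4a1 without any one library other than Ly6C+Selp- replicate 2 (0.0794 to 0.191). Rcan1, a feedback inhibitor of calcineurin, went the other way, from 28.2 and 26.1 FPKM in Ly6C+Selp- libraries to 246 and 231.5 in Ly6C+Selp+ libraries and 320 and 358 in Ly6C-Selp+ libraries (log2 fold change 3.60, adjusted p = 5.44e-05, limma). Angpt2, an antagonist of Tie2, and Plvap, which forms the diaphragms of fenestrae, were the other 2 that rose, by 1.54 and 1.22, and are named after their values were seen. The Angpt2 call was lost without Ly6C+Selp- replicate 2 or either Ly6C-Selp+ library (adjusted p from 0.0647 to 0.106), and the Plvap call without any one of the 6 libraries (0.0540 to 0.199).

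From type I to type II ECs 1 of the 19 rose (Rcan1, 3.09, adjusted p = 0.000316) and 1 fell (Igfbp3, -2.30, adjusted p = 0.0140, limma), beside 0.393% of all genes. With the replicate block 1 rose and 5 fell, beside 1.56% of all genes. Those that fell were Igfbp3, Rgcc, Dll4, Esm1 and Pdgfb, the last 4 with limma adjusted p from 0.0522 to 0.374 without the block and 0.00190 to 0.0380 with it. The Igfbp3 call was lost without either Ly6C+Selp- library or Ly6C+Selp+ replicate 2 (adjusted p from 0.0650 to 0.139). From type II to type III ECs none of the 19 passed in limma, beside 0.222% of all genes, although 10 had an unadjusted p under 0.05, beside 9.99%. With the block 5 fell, beside 1.95% of all genes (Rgcc, Esm1, Apln, Igfbp3 and Aplnr, with limma adjusted p from 0.0505 to 0.219 without it and 0.00167 to 0.0228 with it).

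Vegfa and Flt1 are also known targets of the hypoxia-inducible factors (HIF). Of 8 tested genes of the HIF system 1 rose from type I to type III ECs and none fell, beside 4.14% of all genes. With the replicate block 2 rose, beside 8.29% of all genes, and 2 rose with TPM, median-of-ratios and quantile scaling. The gene that rose was Egln3, a prolyl hydroxylase that HIF itself induces, at 3.60 and 0.825 FPKM in Ly6C+Selp- libraries and 13.0 and 9.93 FPKM in Ly6C-Selp+ libraries (log2 fold change 2.09, adjusted p = 0.0308, limma), and it no longer passed without Ly6C+Selp- replicate 2 (log2 fold change 1.42, adjusted p = 0.127) or without either Ly6C-Selp+ library (0.188 and 0.0920). Without Ly6C+Selp- replicate 1 its change was 2.76, and the call was also lost without a filter on low values (adjusted p = 0.111) and with a pseudocount of 0.1 (0.0517). Hif1a had a change of 1.04 (adjusted p = 0.109 in limma, and 0.00734 with the block, where it passed) and Epas1, the HIF of ECs, one of -0.25 (adjusted p = 0.748). Of 11 tested HIF target genes 1 rose and none fell, beside the same 4.14% of all genes. With the block P4ha1, a collagen prolyl hydroxylase, rose too (0.80, limma adjusted p = 0.327 without the block and 0.0493 with it), beside 8.29% of all genes. The gene that rose in both fits was Slc2a1, the glucose transporter GLUT1, at 12.9 and 15.9 FPKM in Ly6C+Selp- libraries, 35.5 and 46.4 in Ly6C+Selp+ libraries and 56.0 and 72.9 in Ly6C-Selp+ libraries (log2 fold change 2.08, adjusted p = 0.00299, limma), and it passed without any single library. From type I to type II ECs Egln3, Hif1a and Slc2a1 passed in limma with the block and not without it (adjusted p = 0.0389, 0.0452 and 0.00855, against 0.214, 0.421 and 0.0747). With the block 1.56% of all genes passed there. The glycolytic targets Pgk1 and Ldha had changes of 0.70 (adjusted p = 0.424) and -0.08 (adjusted p = 0.944).

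Markers of other cells that make or bind VEGF were read in the same libraries. The 8 pericyte and smooth muscle markers summed to 228 to 553 FPKM in Ly6C+Selp- libraries, 322 to 479 in Ly6C+Selp+ libraries and 102 to 158 in Ly6C-Selp+ libraries. In limma 3 of the 8 were lower in type III than in type I ECs, beside 4.14% of all genes. With the block 4 were lower, beside 8.29% of all genes. The list did not move one way, since 2 of the 8 had a positive change there. These were Acta2 (1.16, adjusted p = 0.177, limma) and Myh11 (0.73, adjusted p = 0.537). Rgs5 alone stood at 346 and 114 FPKM in the Ly6C+Selp- libraries and at 48.6 and 45.4 FPKM in the Ly6C-Selp+ libraries. From type II to type III ECs none of the 8 passed in limma, beside 0.222% of all genes. An unadjusted p under 0.05 was found for 6, beside 9.99% of all genes, and 4 were lower with the block, beside 1.95%. The 7 fibroblast markers summed to 178 to 306, 279 to 453 and 184 to 202 FPKM, and the 8 thymic epithelial markers to 18.8 to 52.4, 20.7 to 27.5 and 16.3 to 52.1 FPKM, in the same order of subsets. The 10 haematopoietic markers summed to 35.8 to 250, 51.8 to 105 and 99.1 to 434 FPKM. No marker of these last 3 lists passed in limma in type III against type I ECs. An unadjusted p under 0.05 was found for 2 epithelial and 0 other markers, beside 14.1% of all genes. With the block Cd3g, of T cells, was higher (1.66, adjusted p = 0.00693, against 0.487 without it) and Krt5, of the epithelium, lower (-0.99, adjusted p = 0.0498, against 0.258). From type II to type III ECs 5 of the 7 fibroblast markers had an unadjusted p under 0.05, beside 9.99% of all genes. Their list median was -0.954 beside 0.135, and none passed in limma with or without the block. From type I to type II ECs Dcn and Lum were higher with the block (limma adjusted p = 0.0342 and 0.0417, against 0.578 and 0.232 without it), beside 1.56% of all genes. The fibroblast sums of type II and type III ECs did not overlap. The haematopoietic and epithelial sums overlapped between all subsets, and the part of any of these cells in the levels of the 7 genes was not tested.

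The genes with the most similar profile were sought among the 4196 other genes with a mean of at least 10 FPKM, by Pearson correlation of log2 values over the 6 libraries. For Kdr these were Afap1l1, Efnb1 and Thbd (r of 0.996, 0.996 and 0.995), and for Flt1 they were Ehd2, Ceacam1 and Efnb1 (0.998, 0.997 and 0.996). Efnb1, an ephrin, was thus near both and ran from 55.6 and 47.2 FPKM in Ly6C+Selp- libraries to 22.0 and 26.0 FPKM in Ly6C-Selp+ libraries. Flt4 ran closest to Rhog, Bcl2l1 and Evl (0.986, 0.980 and 0.980). Among the ligands, Vegfa ran closest to Ptprk, Nfkb2 and Leprel1 (0.995, 0.982 and 0.966), Vegfb to Galnt2, Orai1 and Ecm1, Vegfc to Ythdf1, Tgoln2 and Clec1a, and Pgf to Klf3, Cxx1a and Idh2. These are descriptions over 6 libraries in 3 subsets, each picked from 4196 genes.

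**Figure D5:**
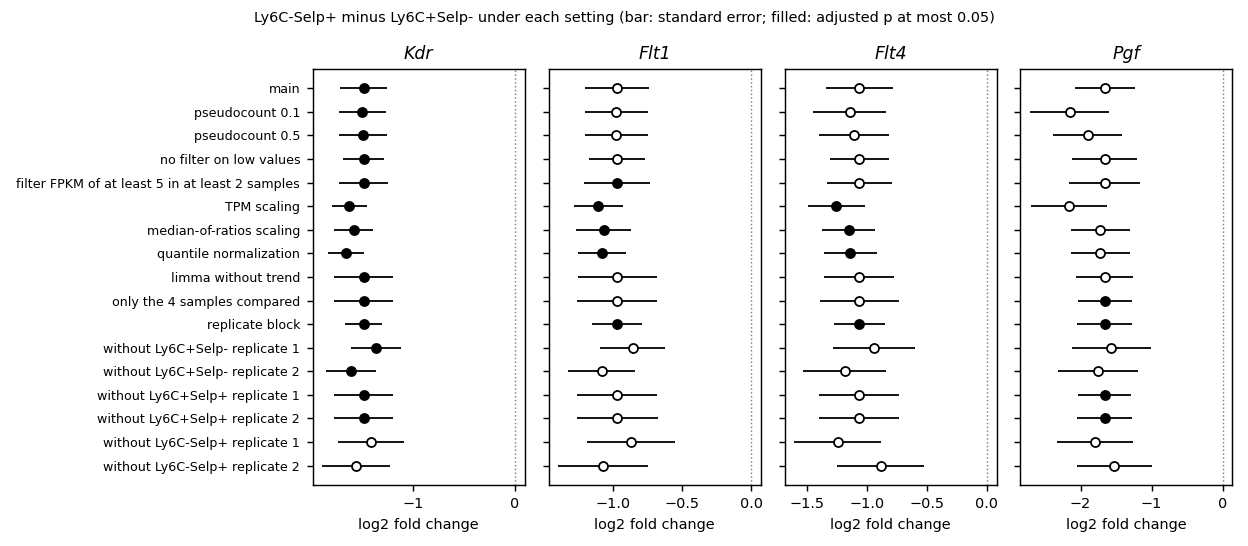
Log2 fold change between type III and type I ECs (x axis, a scale for each gene) of Kdr, Flt1, Flt4 and Pgf under each processing setting (y axis); lines are standard errors and filled circles have an adjusted p of at most 0.05. All values lie below 0, and Kdr is open only where a Ly6C-Selp+ library was left out.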

How the data were processed

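Per the labels and the study's methods, RNA of sorted ECs was sequenced on an Illumina HiSeq. The authors deposited FPKM from Cufflinks (2.1.1) with 95% bounds for each library, after mapping with TopHat2 (2.0.10) to mm9, while the gene annotation is not given in the sources used here. From these FPKM, log2(FPKM + 1) was fitted for the 11717 genes with at least 1 FPKM in at least 2 libraries by limma 3.58.1 in R 4.3.3, with a mean per subset over all 6 libraries, a variance trend and Benjamini-Hochberg adjustment at 0.05. Fold changes on this scale understate those of low genes. The FPKM were not rescaled between libraries in the main fit, and their sums ran from 221458 to 300932 per library. The tables give no read total per library, so fragments were estimated from the bounds. 95 rows outside the chromosomes were left out, and ribosomal Rn45s (4.74% to 6.57% of summed FPKM) was kept. The fit was also run on simulated data, whose changes were larger than those of the 7 genes in the main fit, so that run does not bear on changes of their size.

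Libraries with the same replicate number deviated together (correlations of 0.199, 0.306 and 0.180 between subsets over 11717 genes), so the numbers were taken as pairs. The labels do not say that these libraries belong together, and the pairing rests on the correlations alone. A fit with the number as a block was run beside the first. Its value is given beside the calls on members and pathway genes that it changed, and, for the marker lists, in type III against type I ECs. For the pericyte and fibroblast lists it is also given in other comparisons. The family and the pathway lists were chosen with earlier results of these data known. All 7 members were named, together with up to 8 genes per list past the threshold by size of change, the defining genes of a list, and for each member the 3 genes most like it. Promoter windows came from RefSeq (GRCm38.p6). Alternatives covered pseudocounts, filters, scalings, the variance model, the libraries fitted and each library left out.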

Additional observations from a re-analysis of the deposited data

How the results depend on the processing

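The direction of Kdr, Flt1, Flt4 and Pgf from Ly6C+Selp- to Ly6C-Selp+ ECs held in all 16 other settings. Kdr there ran from -1.61 to -1.36 with single libraries left out and passed in all 10 settings other than leaving out a library. Flt1 passed with a filter at 5 FPKM (-0.97), TPM (-1.11), median-of-ratios (-1.07) and quantile scaling (-1.08) and the replicate block (-0.97). Flt4 passed with TPM (-1.26), median-of-ratios (-1.15) and quantile scaling (-1.14) and the block (-1.06, or -1.25 in Ly6C+Selp+ ECs). Of the 10 settings other than leaving out a library, Pgf passed with only the 4 libraries compared (-1.66) and the block (-1.66). Its change ran from -1.80 to -1.53 with single libraries left out. Kdr in Ly6C+Selp+ against Ly6C+Selp- ECs passed with quantile scaling (-1.01) and the block (-1.01). The block changed no other call on the 7 genes. Among the pathway genes called from type I to type III ECs, Nrp1, Nr4a1 and Egln3 passed in 8 of those 10 settings. Shb, Cd93 and Plvap passed in 7 of them. Igfbp3 from type I to type II ECs passed in 8.

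Signs turned for Vegfc and for Flt4 in Ly6C-Selp+ against Ly6C+Selp+ ECs with TPM (-0.0061). Vegfc in that comparison gave -0.19 (TPM), -0.11 (median-of-ratios) and -0.13 (quantile), and -0.27 to 0.31 with single libraries left out. In Ly6C+Selp+ against Ly6C+Selp- ECs it gave 0.048, 0.013 and 0.033, and -0.21 to 0.14, and in Ly6C-Selp+ against Ly6C+Selp- ECs -0.31 to 0.28 with single libraries left out. The cause was not tested.

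Counts of genes past the threshold moved more. For Ly6C-Selp+ against Ly6C+Selp- ECs, 485 genes became 317 without a filter, 971 with the block and 209 to 404 without single libraries. For Ly6C+Selp+ against Ly6C+Selp- ECs, 46 became 12 without a filter, 98 (TPM), 95 (median-of-ratios), 103 (quantile), 15 without the variance trend, 29 with 4 libraries, 183 with the block and 12 to 33 without single libraries. For Ly6C-Selp+ against Ly6C+Selp+ ECs, 26 became 0 without a filter (limma, 1354 genes at an unadjusted p under 0.05), 109 (TPM), 84 (median-of-ratios), 90 (quantile), 10 without the trend, 7 with 4 libraries, 229 with the block and 2 to 14 without single libraries. The share of lower calls was 57.7% in this last comparison and 81.7% (TPM), 72.6% (median-of-ratios) and 75.6% (quantile), 77.8% with a pseudocount of 0.1, but 28.6% with 4 libraries, 40% without the trend and 45.9% with the block, and in the one before it 17.4% against 30.5% (median-of-ratios), 29.1% (quantile), 45.9% (block) and 6.67% (no trend). TPM scaling moved the median of all genes from 0.135 to -0.052 in the last comparison and from 0.0819 to -0.0292 in the first. With 2 libraries per subset and about 3 to 82 fragments per ligand, the ligand comparisons had the least precision.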
